A study of Mus musculus with 8 samples.

Results

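A set of 10 Notch pathway genes was followed in embryonic sensory ganglia with and without the kinases Erk1 and Erk2. They are the receptors Notch1 and Notch2, the ligands Dll1, Dll3 and Jag1, and the transcriptional regulators Hes1, Hes5, Hes6, Hey1 and Hey2. The genes were chosen by name, and every probe that the platform annotation gives to one of them was taken, which made 10 of 16593 genes with a named probe and 15 of the 25697 probes on the Illumina bead array. The tissue was mouse dorsal root ganglia at E12.5. The wild-type group has 4 samples, and so has the genotype Erk1/2CKO(Wnt1), here the mutant. Its name reads as a conditional deletion of Erk1/2 with Cre under Wnt1 control. The name does not say for each gene whether the loss was limited to cells with Cre. Wnt1-driven Cre acts in the neural crest, from which the neurons and glia of these ganglia derive, and not in blood or vessels. The ganglia came from 3 litters. Which sample came from which litter, whether a sample was 1 embryo or a pool, and whether the wild-type embryos carried Cre or floxed alleles are not given in the sources used here. The p-values therefore measure the spread between these samples, some of which may share a litter.

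Notch signalling passes between touching cells. A Delta or Jagged ligand on one cell binds a Notch receptor on its neighbour, the receptor is cut by an ADAM protease and then by gamma-secretase, and the freed intracellular domain joins the DNA-binding protein RBPJ to switch on Hes and Hey genes. Hes and Hey proteins are repressors that hold back proneural factors such as Neurog1 and Neurog2, and in dorsal root ganglia active Notch keeps cells as progenitors and favours glial over neuronal fate.

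The Hes5 and Hey2 promoters are shown because these genes had the widest swings between arrays among the Hes and Hey genes, and because their upstream sequence holds the RBPJ core motif GTGGGAA or its complement. Each line gives the matching stretch from the RefSeq promoter table (GRCm38.p6), 5′ to 3′ on the strand of the gene, with up to 40 bases on each side and the motif in capitals.
Hes5, chr4:154960673-154960743, plus strand: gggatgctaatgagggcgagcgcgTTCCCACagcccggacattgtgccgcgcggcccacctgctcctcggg
Hes5, chr4:154960800-154960886, plus strand: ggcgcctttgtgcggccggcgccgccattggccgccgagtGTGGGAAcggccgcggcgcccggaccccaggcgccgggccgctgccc
Hey2, chr10:30842944-30843030, minus strand: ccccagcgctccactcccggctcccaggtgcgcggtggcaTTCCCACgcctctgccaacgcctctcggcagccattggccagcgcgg

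The motif was searched on both strands in the 250 bases before each listed start site. It began 226 and 83 bases before the Hes5 start and 207 bases before the Hey2 start. Of the 8 members with an entry in the table, these were the 2 with a match. Hes1 and Hey1 have no entry. Counted by window, 2 of 10 member windows held a match, and 5.42% of all 32851 promoters in the table did. The N box CACNAG, a sequence bound by Hes proteins, was found in 3 of 10 member windows, against 36.7% of all promoters. These were the windows of Notch1 and Notch2 and 1 window of Hes6. A match of letters is a description of the window and was not tested for binding.

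The median probe had a raw intensity of 144 to 159 in the wild-type and 138 to 147 in the mutant. Wild-type arrays 1 and 2 resembled each other (r = 0.994 across genes, which are not independent replicates), as did arrays 3 and 4 (r = 0.993), against 0.975 to 0.981 between these pairs; the mutant arrays correlated at 0.983 to 0.993. Wild-type arrays 1 and 2 correlated with the mutant arrays at 0.983 to 0.986, and wild-type arrays 3 and 4 at 0.970 to 0.981. Wild-type arrays 1 and 2 thus resembled the mutant arrays more than they did wild-type arrays 3 and 4. Results that rest on a wild-type pair are therefore also given without it. All arrays lay on 1 slide, the genotypes in separate stretches of positions, so position and genotype cannot be told apart. Of 11 sensory neuron markers 9 passed the filter on dim probes, among them Isl1, a transcription factor of these neurons. Of 10 spinal cord progenitor markers 8 lay under that filter, including Pax6, Olig2 and Sox1, while Nkx6-1 and Irx3 passed.

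Of the 10 genes, 8 passed the filter, which kept the brighter probes, those with a mean log2 intensity over 6.71, the median probe's mean. None of the 8 differed between mutant and wild-type at an adjusted p under 0.05 in limma, 0 of 8 also by the unadjusted p, and no other tool was run. Over all 8935 named genes tested, 2.51% passed by the adjusted p (1.40% higher and 1.11% lower in the mutant) and 18.1% by the unadjusted p. Differences, mutant minus wild-type, ran from -0.56 for Hey2 to 0.44 for Hes5 on the log2 scale, with 3 positive, 5 negative and a median of -0.023, beside a median of 0.0018 over all genes. Wild-type and mutant arrays overlapped for all 10 genes, while they did not overlap for 12.0% of all genes (6.30% with the mutant above, 5.65% with it below). Probe by probe, without a filter, 0 of 15 passed the adjusted test (1.14% of all probes) and 2 had an unadjusted p under 0.05 (12.4% of all probes).

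**Figure D1:**
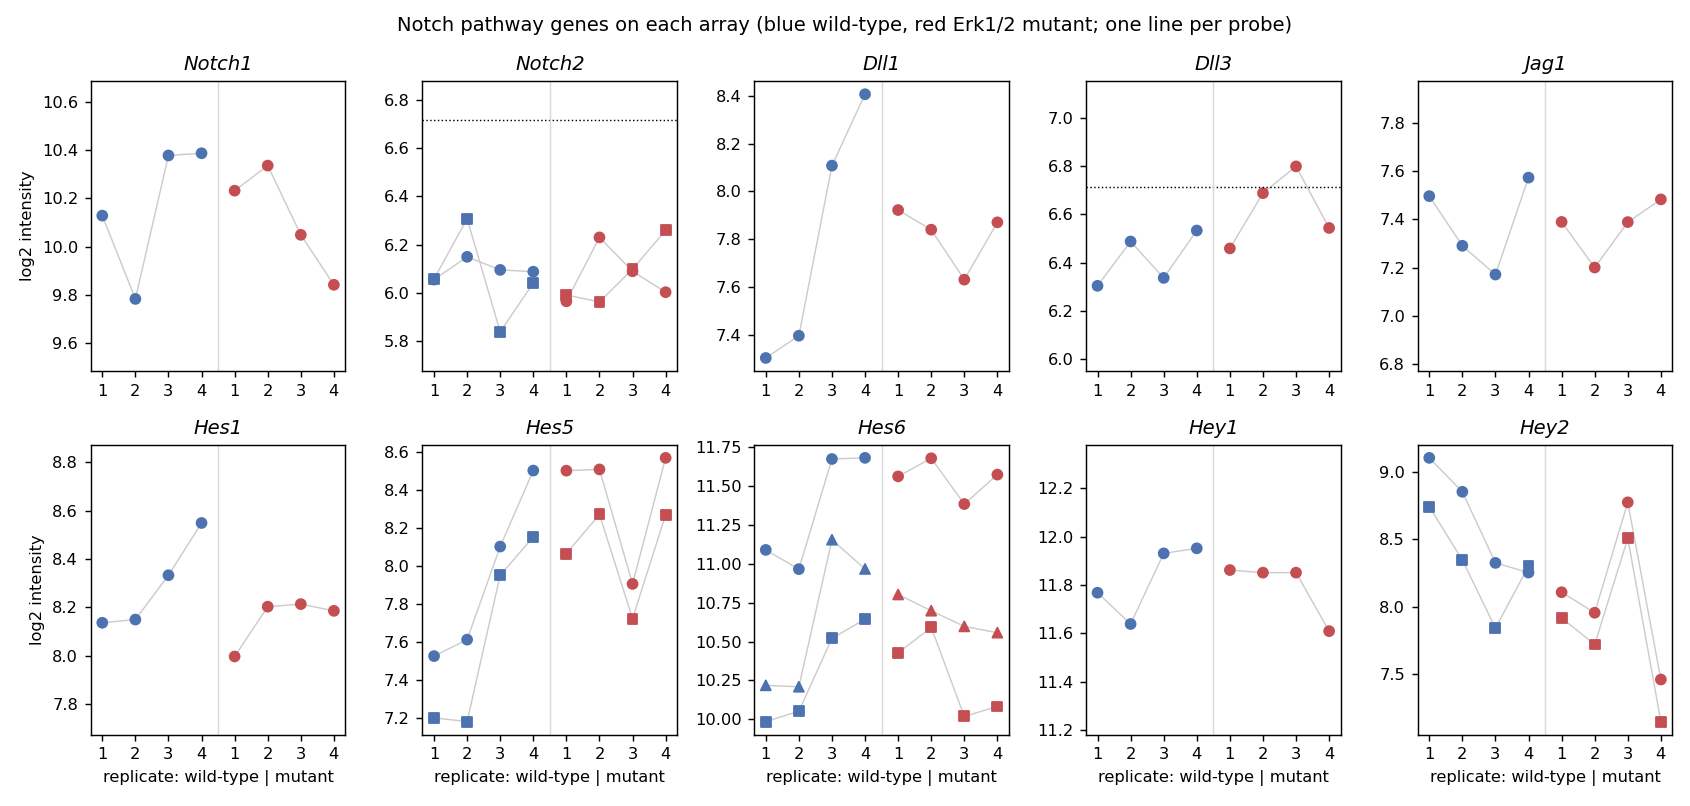
Normalized log2 intensity (vertical axes) of the 10 Notch pathway genes on the 8 arrays (horizontal axes, replicate number; wild-type left in blue, mutant right in red), with a marker shape and line for each probe; circles are the brightest probe and the dotted line is the filter level of 6.71. Wild-type arrays 3 and 4 lie above 1 and 2 for Dll1, Hes5 and Hes6 and below them for Hey2.

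Notch1, a receptor of neural progenitors, read 10.13, 9.78, 10.38 and 10.39 on wild-type arrays 1 to 4 and 10.23, 10.34, 10.05 and 9.84 on mutant arrays 1 to 4 (normalized log2 intensity). Both groups span nearly the same range. The difference was -0.054 ± 0.15 (SE, n = 4 per group; limma adjusted p = 0.888), and its 95% interval allows a mutant level between 0.760 and 1.22 times the wild-type level. Notch2 lay under the filter on every array and at both probes, from 5.97 to 6.23 in the mutant and 6.06 to 6.15 in the wild-type at its brighter probe. In raw intensity that probe read 110 to 119 in the wild-type and 101 to 114 in the mutant, where the lowest value of any probe was 80.3. At such readings a difference was not detectable; the fit without a filter gave -0.025 ± 0.08 (limma adjusted p = 0.942).

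Among the ligands, Dll1, which activates Notch in neighbouring cells and marks cells entering neurogenesis, had the largest spread within the wild-type. It read 7.30 and 7.40 on wild-type arrays 1 and 2, 8.11 and 8.41 on arrays 3 and 4, and 7.92, 7.84, 7.63 and 7.87 on the mutant arrays. Every mutant array lay between the wild-type pairs. The group means were 7.80 ± 0.54 (SD, n = 4) and 7.82 ± 0.13, with a difference of 0.012 ± 0.22 (SE; limma adjusted p = 0.986). In raw intensity the probe read 218, 229, 301 and 407 on the wild-type arrays and 262, 263, 220 and 280 on the mutant arrays.

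Jag1, a ligand also used in vessels and other tissues, read 7.50, 7.29, 7.17 and 7.57 in the wild-type and 7.39, 7.20, 7.39 and 7.48 in the mutant. It differed by -0.017 ± 0.11 (SE, n = 4 per group; limma adjusted p = 0.952) and was the tested gene whose wild-type pairs overlapped. Dll3, a divergent ligand that acts inside the cell that makes it and does not activate Notch in neighbours, read 6.30, 6.49, 6.34 and 6.53 in the wild-type and 6.46, 6.69, 6.80 and 6.54 in the mutant. Mutant array 3 alone stood above the filter level. The fit without a filter gave 0.21 ± 0.10 (limma adjusted p = 0.395), and the groups overlap.

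Hes1, a repressor of proneural genes expressed in progenitors, read 8.14, 8.15, 8.33 and 8.55 in the wild-type and 7.997, 8.20, 8.21 and 8.19 in the mutant. Its difference was -0.14 ± 0.11 (SE, n = 4 per group; limma adjusted p = 0.515), with an interval of 0.768 to 1.07 times the wild-type level.

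Hes5, the Hes gene most closely tied to Notch activity in neural progenitors, read 7.52, 7.61, 8.10 and 8.50 in the wild-type and 8.50, 8.51, 7.90 and 8.57 in the mutant at the probe used in the test. Mutant arrays 1, 2 and 4 stood at the level of the highest wild-type array, while mutant array 3 stood lower. In raw intensity the same probe read 248, 259, 299.7 and 432 in the wild-type and 367, 392, 258 and 429 in the mutant. The difference was 0.44 ± 0.22 (SE, n = 4 per group; limma adjusted p = 0.333), and the interval runs from 0.957 to 1.91 times the wild-type level. The other probe, which gave the same order of pairs, read 7.20, 7.18, 7.95 and 8.15 in the wild-type and 8.06, 8.27, 7.72 and 8.27 in the mutant. It differed by 0.46 ± 0.21 (limma on every probe, adjusted p = 0.395, unadjusted p = 0.0468).

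Hes6, a family member that opposes Hes1 and promotes neuronal differentiation in the mouse, has 3 probes above the filter. The brightest read 11.09, 10.97, 11.67 and 11.68 in the wild-type and 11.56, 11.68, 11.38 and 11.57 in the mutant. All 4 mutant arrays lay above wild-type arrays 1 and 2, and mutant array 2 reached the level of arrays 3 and 4. The difference was 0.20 ± 0.17 (SE, n = 4 per group; limma adjusted p = 0.571). The other probes differed by 0.027 ± 0.19 and -0.021 ± 0.16, and the mean of the 3 probes by 0.068 ± 0.18 (adjusted p = 0.879). The probes thus disagree on the size and sign of the Hes6 difference.

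Hey1, a repressor related to the Hes proteins, was among the steadiest of the tested members. It read 11.77, 11.64, 11.93 and 11.95 in the wild-type and 11.86, 11.85, 11.85 and 11.61 in the mutant. Its difference was -0.029 ± 0.10 (SE, n = 4 per group; limma adjusted p = 0.907), with an interval of 0.842 to 1.14 times the wild-type level.

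Hey2, best known for its part in heart and vessel development, varied most. Its brighter probe read 9.10, 8.85, 8.33 and 8.25 in the wild-type and 8.11, 7.96, 8.77 and 7.46 in the mutant. Mutant array 3 alone entered the wild-type range, and mutant array 4 was the lowest of all. Raw intensity ran from 342 to 667 in the wild-type and from 219 to 431 in the mutant. The difference was -0.56 ± 0.27 (SE, n = 4 per group; limma adjusted p = 0.310), an interval of 0.445 to 1.03 times the wild-type level, and at the other probe it was -0.49 ± 0.24. Limma on every probe gave the brighter Hey2 probe an unadjusted p = 0.0417 (adjusted p = 0.376) and the other an unadjusted p = 0.0686 (adjusted p = 0.447). At that other probe mutant array 1 (7.92) also entered the wild-type range. Over the 8 arrays the SD of Hey2 was above 97.6% of all tested features, that of Hes5 above 95.2% and that of Dll1 above 92.0%.

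The wild-type pairs decided the direction for several genes. For 7 of the 8 tested members replicates 1 and 2 did not overlap replicates 3 and 4, as for 60.4% of all genes; replicates 1 and 2 were lower for 6 of them and higher for Hey2. The mean of replicates 1 and 2 minus that of 3 and 4 was -0.91 for Dll1, -0.73 for Hes5, -0.65 for Hes6, -0.43 for Notch1 and 0.69 for Hey2, where the 90th percentile of its size over all genes was 0.52. The pairs were found in the data and are not groups of the study, so their gap was not tested. Fits without a pair keep 2 wild-type arrays that were picked for their likeness in these same data. Their p-values and calls, here and for other genes below, therefore describe the split and are not tests of genotype.

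Without wild-type replicates 3 and 4, Hes6 rose in the mutant by 0.52 ± 0.11 (SE; limma adjusted p = 0.0427), 1 of 8 members called where 2.37% of all genes were (0.963% higher). Hes5 stood at 0.80 ± 0.18 (adjusted p = 0.0562), Dll1 at 0.47 ± 0.11 (adjusted p = 0.0624) and Hey2 at -0.90 ± 0.29 (adjusted p = 0.153). In the fit on every probe, both Hes5 probes (0.80 and 0.89; adjusted p = 0.0360 and 0.0101) and 1 Hes6 probe (0.52; adjusted p = 0.0403) were called higher, against 0.471% of all probes. These fits rest on 2 wild-type arrays.

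Without wild-type replicates 1 and 2 the picture turned. Dll1 fell in the mutant by 0.44 (SE 0.12, limma adjusted p = 0.0457), 1 of 8 members called where 13.6% of all genes were (6.80% lower). Hes6 stood at -0.13 ± 0.10 (adjusted p = 0.445), Hes5 at 0.069 ± 0.20 (adjusted p = 0.854), Notch1 at -0.27 ± 0.14 (adjusted p = 0.233) and Hey2 at -0.22 ± 0.29 (adjusted p = 0.671). The other Hes6 probes stood at -0.40 ± 0.11 (limma on every probe, adjusted p = 0.0581) and -0.30 ± 0.15 (adjusted p = 0.335), and in that fit Dll1 was not called (adjusted p = 0.0551). The difference of Dll1 thus had opposite signs against each pair, and that of Hes6 too. Jag1 stayed near 0 in both fits, at -0.028 and -0.0068.

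**Figure D2:**
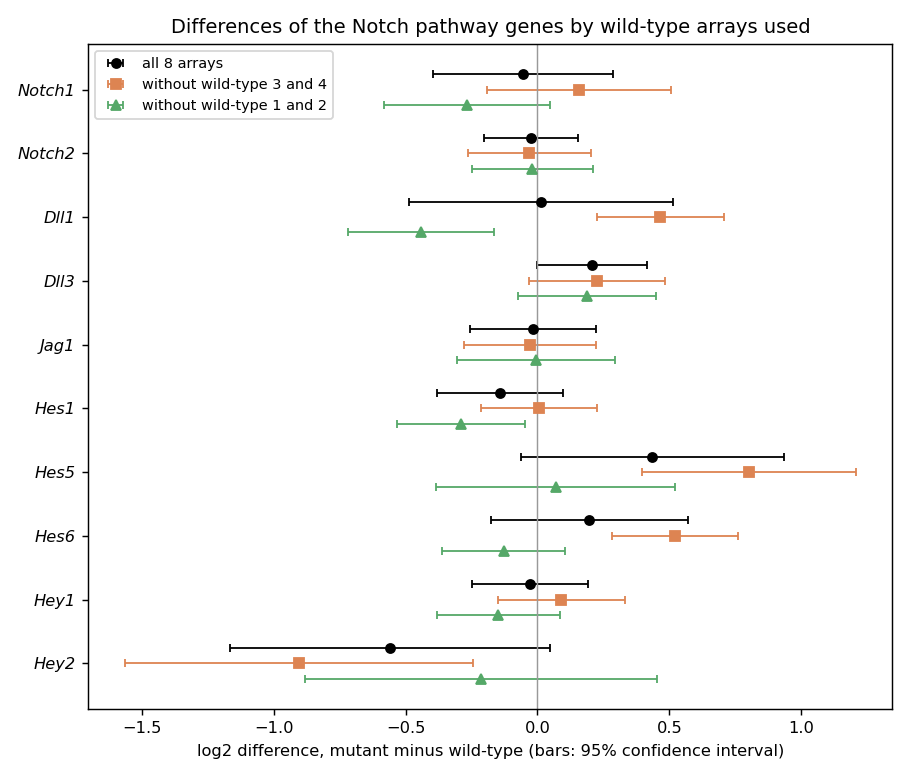
Log2 difference, mutant minus wild-type (horizontal axis), of each of the 10 genes with its 95% confidence interval, in the fit on all 8 arrays (black circles), without wild-type replicates 3 and 4 (orange squares) and without wild-type replicates 1 and 2 (green triangles). Dll1 moves from 0.47 to -0.44 between the reduced fits, while Notch2, Dll3 and Jag1 keep their place.

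Some other gene lists moved with these genes across the wild-type arrays. The level of a list is the mean over its tested genes of the log2 value minus the gene's own mean over 8 arrays. Cell cycle genes (7 of 13 tested) stood at -0.20 and -0.19 on wild-type arrays 1 and 2, 0.71 and 0.63 on arrays 3 and 4, and -0.38 to -0.13 in the mutant. Erythroid genes (7 of 11 tested) stood at -0.10, -0.37, 0.79 and 0.40 on the wild-type arrays and -0.28 to -0.065 in the mutant. Of that list, Hbb-y (14.36, 14.35, 14.28 and 14.33) and Hba-a1 (14.40, 14.33, 14.58 and 14.25) were not raised on both wild-type arrays 3 and 4. Sensory neuron markers (9 of 11 tested) ran opposite to the cell cycle genes, at 0.24, 0.14, -0.42 and -0.26, and -0.056 to 0.32 in the mutant. Not all of them did: Tlx3, a sensory neuron transcription factor, read 9.73, 9.94, 9.80 and 9.65 in the wild-type and was called higher in the mutant (0.75 ± 0.12, SE; limma adjusted p = 0.0108). Tubb3 (7.24, 7.08, 7.25 and 7.10 in the wild-type) did not split by pair either. The RNA-binding protein gene Elavl3 did run opposite (10.56, 10.44, 10.04 and 10.01 in the wild-type). It lay above the wild-type on every mutant array (0.48 ± 0.14, limma adjusted p = 0.101). Of the 2 spinal cord progenitor markers that passed the filter, Nkx6-1 split the wild-type pairs as Dll1 and Hes5 did, and Irx3 did not. The mean of the 2 markers stood at -0.40, -0.52, 0.0026 and 0.40 on wild-type arrays 1 to 4 and at -0.068 to 0.40 in the mutant. Nkx6-1 read 7.31, 7.16, 8.27 and 7.98 in the wild-type and 7.98, 8.19, 7.89 and 7.84 in the mutant. Irx3 read 7.75, 7.68, 7.61 and 8.69 in the wild-type and 7.98, 8.47, 8.26 and 7.90 in the mutant. Mesenchyme genes (8 of 9 tested) did not split by wild-type pair, at 0.067, -0.030, 0.098 and -0.097, and -0.35 to 0.17 in the mutant. On the wild-type arrays Dll1, Hes5 and Hes6 were thus high where the cell cycle and erythroid lists were high. On the mutant arrays cell cycle genes stood near or below the level of wild-type arrays 1 and 2. Dll1 (7.63 to 7.92), Hes5 (7.90 to 8.57) and Hes6 (11.38 to 11.68) lay above those arrays on every mutant array, at the probe used in the test. At another Hes6 probe, mutant array 3 (10.02) lay below wild-type array 2 (10.05). The part of these lists in the Notch gene differences was not tested. In whole ganglia, fewer cells of a type and less RNA per cell cannot be told apart.

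Glial markers (5 of 11 tested) stood at 0.27, 0.25, -0.36 and -0.24 on wild-type arrays 1 to 4 and at -0.076, -0.10, 0.42 and -0.16 on mutant arrays 1 to 4. Its 3 highest arrays were those of Hey2, wild-type 1 and 2 and mutant 3, though in another order. The genes of the list went opposite ways between genotypes. The myelin protein gene Mbp was called higher in the mutant (1.27 ± 0.28, SE; limma adjusted p = 0.0459). Dhh, a Schwann cell signal, lay lower on every mutant array than on any wild-type array (-0.86 ± 0.20, adjusted p = 0.0525). Gfra3 stood at 0.57 ± 0.25 (adjusted p = 0.273), Ednrb at -0.24 ± 0.16 (adjusted p = 0.470) and Fabp7 at -0.52 ± 0.19 (adjusted p = 0.188). Sox10 and Erbb3 were not analysed here, and Foxd3 and Cdh19 lay under the filter. Endothelial markers (7 of 9 tested), of interest because Hey2 acts in vessels, stood between -0.13 and 0.24 in the wild-type and between -0.25 and 0.10 in the mutant. The part of either list in the Hey2 values was not tested.

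For the 3 members with an SD over 8 arrays above the 90th percentile of all features, the named genes with the closest centred profile over the 8 arrays were taken, by root mean square difference in log2 units. Closest to Hey2 were Thbs2, a matrix glycoprotein gene (0.16), Fabp7, which encodes a fatty acid carrier of glial precursors and is itself in the glial list (0.17), and Itm2a (0.19), where the median gene lay at 0.53. Closest to Hes5 were Fam110a (0.14), Rgs16, a regulator of G protein signalling (0.15), and Amotl2, an angiomotin family gene (0.18), with the median gene at 0.43. Closest to Dll1 were Pdzph1 (0.099), the keratin gene Krt90 (0.13) and Igdcc3 (0.14), with the median gene at 0.37.

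**Figure D3:**
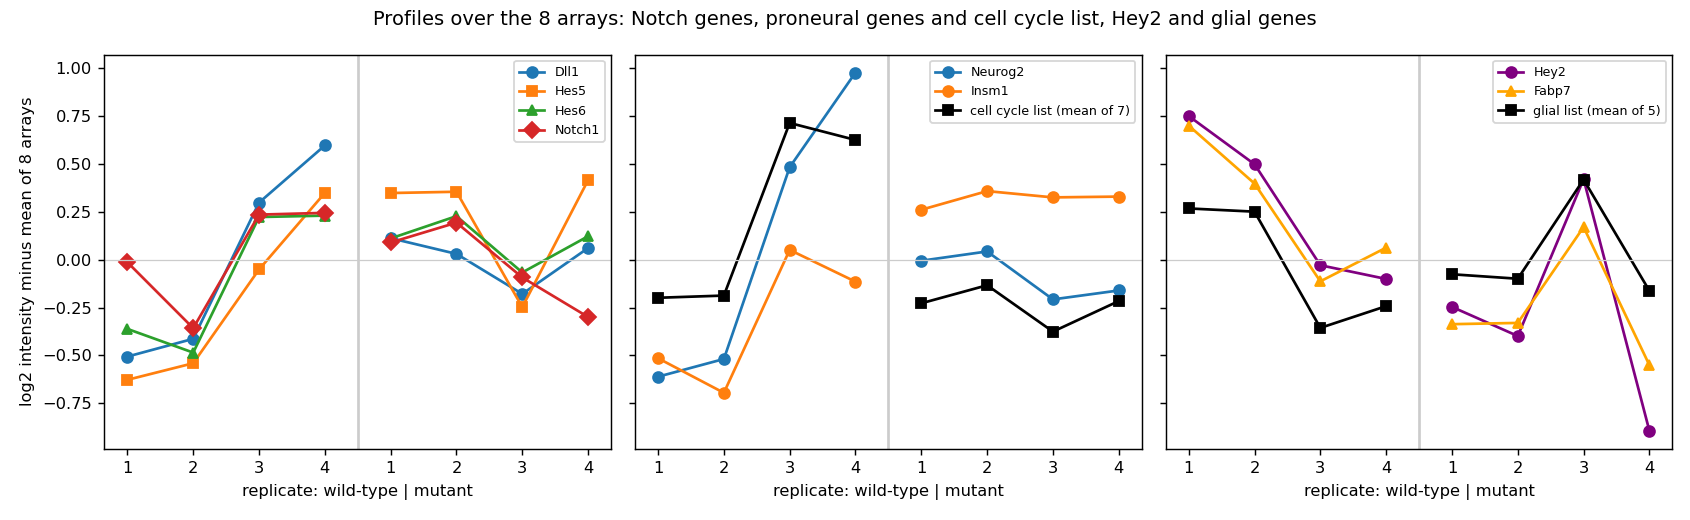
Log2 intensity minus the mean of the 8 arrays (vertical axis) by replicate (horizontal axis, wild-type left, mutant right) for Dll1, Hes5, Hes6 and Notch1 (left), Neurog2, Insm1 and the mean of 7 cell cycle genes (middle), and Hey2, Fabp7 and the mean of 5 glial genes (right). Wild-type 3 and 4 lie above wild-type 1 and 2 in the left and middle panels and below them in the right panel; lines only link the arrays of a group and carry no order.

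The list of proneural genes, which also holds later neuronal factors such as Insm1 and Neurod1, gave no call. All 5 of its genes with a named probe were tested: 0 passed the adjusted limma test, 3 had an unadjusted p under 0.05, and 4 of the 5 differences were positive. Over all genes 2.51% passed, 18.1% had such an unadjusted p and 12.0% had groups that did not overlap, as 2 of the 5 did here. Insm1, a zinc finger factor of differentiating neurons, read 10.73, 10.55, 11.30 and 11.13 in the wild-type and 11.51, 11.60, 11.57 and 11.58 in the mutant, so the groups did not overlap. It stood at 0.64 ± 0.15 (SE, n = 4 per group; adjusted p = 0.0574), and it passed without wild-type replicates 3 and 4 (0.92, adjusted p = 0.00261) and without replicates 1 and 2 (0.35, adjusted p = 0.0359). Neurod1, a later neurogenic factor, did not overlap either and stood at 0.47 ± 0.14 (adjusted p = 0.111). It passed without wild-type replicates 1 and 2 (0.50, adjusted p = 0.0370) but not without replicates 3 and 4 (0.44, adjusted p = 0.175). Neurog1 stood at 0.34 ± 0.15 (adjusted p = 0.258) and Neurod4 at 0.014 ± 0.21 (adjusted p = 0.984).

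Neurog2, which starts an early wave of sensory neurogenesis, split the wild-type pairs as Dll1 did. It read 6.35, 6.45, 7.45 and 7.94 in the wild-type and 6.96, 7.01, 6.76 and 6.80 in the mutant, with all mutant arrays between the pairs. The difference was -0.17 ± 0.31 on all arrays (SE; limma adjusted p = 0.824). It was 0.48 without replicates 3 and 4 (adjusted p = 0.0513) and -0.81 without replicates 1 and 2 (adjusted p = 0.00844), where it was called lower.

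The wider pathway list held 67 genes, of which 60 have a named probe and 46 were tested. Of these 1 rose, 0 fell and 45 did not pass, where 2.51% of all genes were called; 12 had an unadjusted p under 0.05 (18.1% of all genes). Differences were positive for 27 and negative for 19, with a median of 0.059 beside 0.0018 over all genes, and the groups did not overlap for 10 of 46, above the wild-type in 8 and below it in 2, where 12.0% of all genes did not overlap (6.30% above, 5.65% below). The gene that rose was Dlk1, a Delta-like protein without the domain that activates Notch. It read 9.91, 9.75, 9.59 and 9.68 in the wild-type and 10.29, 10.39, 10.30 and 10.16 in the mutant. The rise was 0.55 ± 0.09 (SE, n = 4 per group; limma adjusted p = 0.0151), with every mutant array above every wild-type array. The difference was nearly as large without wild-type replicate 4 (0.53, adjusted p = 0.0533), mutant replicate 1 (0.55, adjusted p = 0.0593) or mutant replicate 2 (0.52, adjusted p = 0.0604), but it was then not called, nor without wild-type replicates 3 and 4 together (0.46, adjusted p = 0.0562).

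By role, the 2 brightest tested genes of each class were as follows. The receptor genes Notch4, best known from vessels, and Notch3 stood at 0.059 ± 0.17 and -0.12 ± 0.15. Besides Dlk1, the other ligand gene was Mfap2, a microfibril protein gene, at 0.42 ± 0.10 (limma adjusted p = 0.0592), with all mutant arrays above the wild-type. The mean of the Mfap2 probes differed by 0.26 (adjusted p = 0.216). Heyl, the third Hey gene, and Nrarp, a feedback inhibitor induced by Notch, stood at -0.15 ± 0.17 and 0.013 ± 0.14. In the nuclear complex, the deacetylase gene Hdac2 and the corepressor gene Tle1 stood at 0.13 ± 0.07 and 0.022 ± 0.11. None of these 7 genes passed.

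Among the genes that modify or cut the receptor, Mfng, a Fringe glycosyltransferase that changes which ligand Notch responds to, read 10.53, 10.49, 10.96 and 10.93 in the wild-type and 11.18, 11.32, 11.16 and 11.16 in the mutant. The groups did not overlap, and the difference, 0.48 ± 0.12 (SE, n = 4 per group), missed the threshold (limma adjusted p = 0.0757). The mean of the Mfng probes differed by 0.35 (limma adjusted p = 0.155). Mfng was called higher without wild-type replicates 3 and 4 (0.69, adjusted p = 0.00777) but not without replicates 1 and 2 (0.26, adjusted p = 0.0965). Poglut1, which adds glucose to Notch, stood at 0.059 ± 0.09. The gamma-secretase subunit genes Ncstn and Psenen stood at 0.28 ± 0.08 (adjusted p = 0.0932) and -0.039 ± 0.08, and the mean of the Ncstn probes differed by 0.11 (adjusted p = 0.515). The Deltex genes Dtx3 and Dtx2, of a family of ubiquitin ligases tied to Notch trafficking, stood at 0.35 ± 0.08 (adjusted p = 0.0558) and 0.20 ± 0.08 (adjusted p = 0.217).

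**Figure D4:**
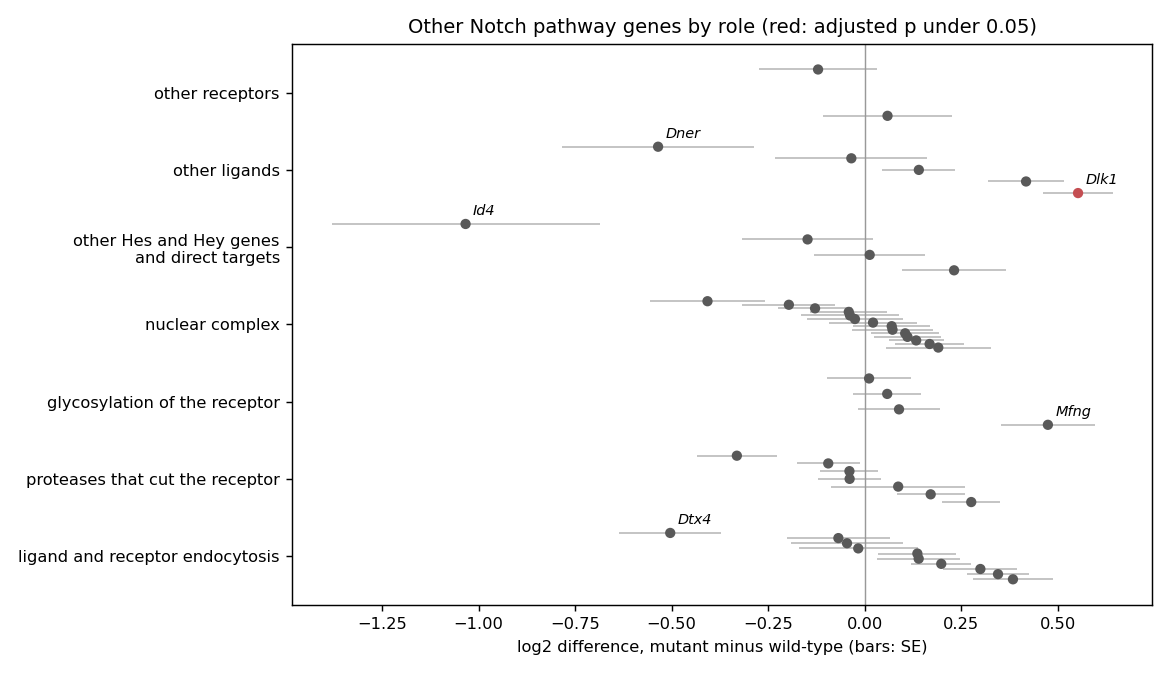
Log2 difference, mutant minus wild-type (horizontal axis, bars are SE), of the 46 tested genes of the wider Notch pathway, grouped by role on the vertical axis, with genes that passed the test in red. Dlk1 at 0.55 is the gene called. Id4, Dner and Dtx4, named for their distance from 0 after their values were seen, did not pass. Id4 had the largest difference (-1.03 ± 0.35, limma adjusted p = 0.157). The mean of its wild-type replicates 1 and 2 minus that of 3 and 4 was 1.30. It was called without wild-type replicates 3 and 4, and also without wild-type replicate 3 alone.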

How the data were processed

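The data are 8 Illumina bead arrays. The deposited table gives bead intensity on a linear scale for 25697 probes, with no detection p-values and no control probes; BeadStudio is the tool named per the submitters' processing notes, without version or settings. The authors' processed table is in log2 units and equals log2 with quantile normalization of those intensities to within 5.0e-09; its scale, centring and direction are thus known, every column has a median of 7.21, and it was used as an alternative.

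Intensities were corrected with normexp (offset 50), quantile normalized and log2-transformed (limma 3.58.1, R 4.3.3). With this offset, differences of dim probes are understated. Symbols came from the platform annotation, updated through gene identifiers (23962 of 23978 named probes matched; 1719 probes have no name in the table used). Of the probes, 12848 lay above the median probe mean, and the brightest stood for each gene: 9664 features, 8935 of them named genes. The test was limma (lmFit, eBayes, two-sided) with Benjamini-Hochberg adjustment over all features, called under 0.05. Array number limits precision; the median SE over genes was 0.10.

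The members and lists were chosen with earlier results of these data known. Genes named are all members, the called and the 2 brightest tested wider pathway genes of each role, all tested proneural genes, and the 3 closest profiles of each variable member; marker genes were named after their values were seen. On simulated data of 9664 features for this comparison, the share recovered was 78.5% at a 1.5-fold change and 95.0% at a 2-fold change. These shares are for features picked at random, with independent noise on each array and no wild-type pairs. They do not hold for single members such as Hey2, Hes5 and Dll1, whose SE was 0.27, 0.22 and 0.22, above the median of 0.10. Alternatives were other background corrections, normalizations, filters, probe rules, variance models, thresholds and sample sets. No check of the genotype labels on the targeted genes is included, as those genes were not analysed here.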

Additional observations from a re-analysis of the deposited data

Results flagged for a closer look

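In 3 of 30 groups of 4 arrays examined (15 probes in each genotype), the gap between one array and the nearest other, divided by the range of the group, was above Dixon's 95% critical value for 4 samples; chance alone flags about 1 in 20 groups. For Hes5 the ratio was 0.898, with mutant replicate 3 at 7.90 against 8.50 to 8.57 on the other mutant arrays, at the probe used in the test. For Hes1 it was 0.871, with mutant replicate 1 at 7.997 against 8.19 to 8.21. For Hey1 it was 0.957, with mutant replicate 4 at 11.61 against 11.85 to 11.86.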

How the results depend on the processing

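No Notch member was called when any single array was left out, nor in the other alternatives run, except the fits without a wild-type pair, which called 1 member each (Hes6, Dll1); 3 member probes were called without wild-type replicates 3 and 4. The median member difference was -0.18 without wild-type replicates 1 and 2, 0.12 without replicates 3 and 4, and -0.11 to 0.032 without single arrays. Called genes numbered 224, and 341 with array weights, 82 with the replicate block, 1218 without wild-type replicates 1 and 2, 443 at an adjusted p under 0.1 and 67 to 200 without single arrays. Median scaling turned their split from 125 higher and 99 lower to 57 and 181 and moved the median gene to -0.062. Wider pathway calls numbered 1, and 3 without background correction, in the authors' table, with cyclic loess, with an intensity trend or without wild-type replicates 3 and 4, 2 with the upper-quartile filter, 6 with array weights or without wild-type replicates 1 and 2, 0 with the block, 7 at an adjusted p under 0.1 and 0 to 2 without single arrays. Same-numbered samples did not deviate together (correlations of -0.28 to -0.051). Their litters are not given, so the block may pair samples that share only a number. The block left 0 members called, and Dlk1 was not called under it (limma adjusted p = 0.0597).

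Signs turned as follows, and the cause was not tested. Without wild-type replicates 3 and 4: Notch1 0.16, Hey1 0.090, Hes1 0.0068, Notch3 0.074, Heyl 0.11, Psenen 0.036, Tle1 -0.14, Neurog2 0.48. Without wild-type replicates 1 and 2: Hes6 -0.13, Dll1 -0.44, Nrarp -0.21, Neurod4 -0.31, Notch4 -0.27. Under median scaling: Dll1 -0.026, Notch2 0.026, Hdac2 -0.034, Tle1 -0.096, Poglut1 -0.048, Nrarp -0.090, Neurod4 -0.085, Notch4 -0.034. With array weights Notch1 was 0.011 and Tle1 -0.021, and with the mean of probes Notch4 was -0.044. Leaving out single arrays gave -0.15 to 0.21 for Dll1, -0.18 to 0.036 for Notch1, -0.078 to 0.011 for Notch2, -0.088 to 0.046 for Jag1, -0.090 to 0.032 for Hey1, -0.28 to 0.0185 for Heyl, -0.070 to 0.18 for Notch4, -0.069 to 0.11 for Nrarp, -0.068 to 0.092 for Tle1, -0.10 to 0.15 for Neurod4 and -0.40 to 0.13 for Neurog2. At the upper-quartile filter 3 members were tested. Signal near background limits Notch2 and Dll3, and also Neurog2 on wild-type arrays 1 and 2 and on the mutant arrays.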
